A study of Mus musculus with 9 samples.

Results

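The immediate early genes Fos, Fosb, Jun, Junb, Egr1, Atf3, Ier2, Ier3, Dusp1 and Nr4a1 were followed in mouse choroidal neovascularization treated with ABTAA, VEGF Trap or Fc. The 10 genes were taken by symbol from the 24421 symbols of each count table, and all 10 had counts in each of the 9 libraries and entered the test. The animals were male mice of 8 weeks whose eyes received 4 laser burns, which rupture the Bruch membrane so that vessels grow in from the choroid. Each of 3 reagents was injected into the vitreous at 5 µg (5 mg/ml). ABTAA, an antibody against angiopoietin 2, also switches on Tie2, a receptor of endothelial cells. VEGF Trap is a soluble decoy receptor for VEGF, and Fc is the antibody fragment that served as control. All 3 groups therefore carried the burn and an injection, and no unburned or uninjected tissue was analysed here. Laser capture took the lesions together with nearby pigment epithelium and choroid, and each group has 3 libraries. Groups follow the sample titles; the count columns of the Fc libraries are headed as knockout controls. No label gives the strain, the time from burn to collection or the animals behind a library. The spread that the p-values rest on is thus one between libraries and may be technical.

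Immediate early genes are transcribed within minutes of a stimulus without new protein synthesis. Growth factors, injury, shear and stress reach them through MAP kinases, which act on serum response factor with its Elk partners and on CREB, and their short-lived mRNAs fade again soon after. Fos and Jun proteins pair as the transcription factor AP-1, Egr1 is a zinc finger factor, Nr4a1 an orphan nuclear receptor, and Dusp1 a phosphatase that switches MAP kinases off again. In endothelial cells, VEGF is a known inducer of several of them.

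Total counts ran from 6335805 to 14439835 per library, and 15968 to 16996 genes were detected in each. Counts behind a single value were lowest for Fosb, at 3 to 18 reads per library, and highest for Egr1, at 729 to 2206 reads. CPM below are TMM-scaled counts per 1000000, and 3 counts, taken as the floor for counting error alone, equal 0.208 to 0.473 CPM before this scaling. Pigment epithelium markers were present as the tissue label says, with a summed level of 1501 to 2267 CPM in ABTAA, 1587 to 2004 CPM in VEGF Trap and 1212 to 1967 CPM in Fc over 8 genes. Only Best1 of these was at 0, in 1 library.

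Promoters of 3 members are shown because Fos and Nr4a1 gave the widest differences between groups and Dusp1 carries the complete form of a motif that Fos and Nr4a1 carry in part. The windows run from 250 bases before to 50 after the RefSeq transcription start on GRCm38.p6, 5′ to 3′ on the gene's strand. Capitals mark each TGACG on either strand, the core of the cAMP response element bound by CREB and ATF factors, so that CGTCA is a match on the opposite strand. The windows are chr12:85473640-85473939 (plus strand) for Fos, chr15:101266596-101266895 (plus strand) for Nr4a1 and chr17:26508423-26508722 (minus strand) for Dusp1.
Fos: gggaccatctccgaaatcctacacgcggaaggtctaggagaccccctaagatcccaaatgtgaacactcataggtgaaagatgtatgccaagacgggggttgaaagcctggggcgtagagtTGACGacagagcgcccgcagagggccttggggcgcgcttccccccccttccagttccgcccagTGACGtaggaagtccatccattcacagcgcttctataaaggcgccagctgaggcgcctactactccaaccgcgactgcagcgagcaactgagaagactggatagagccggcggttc
Nr4a1: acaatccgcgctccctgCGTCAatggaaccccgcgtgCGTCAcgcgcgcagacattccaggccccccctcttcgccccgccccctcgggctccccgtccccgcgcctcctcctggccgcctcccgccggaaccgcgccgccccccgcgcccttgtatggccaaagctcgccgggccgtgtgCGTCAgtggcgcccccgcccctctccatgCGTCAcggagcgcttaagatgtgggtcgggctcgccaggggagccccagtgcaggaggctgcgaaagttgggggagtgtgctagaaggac
Dusp1: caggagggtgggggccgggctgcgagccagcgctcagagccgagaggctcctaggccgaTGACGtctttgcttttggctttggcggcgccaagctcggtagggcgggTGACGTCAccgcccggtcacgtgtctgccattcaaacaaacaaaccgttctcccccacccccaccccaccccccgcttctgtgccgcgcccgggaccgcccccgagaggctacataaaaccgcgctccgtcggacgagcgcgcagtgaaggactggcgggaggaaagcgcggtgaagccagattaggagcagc

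Of the members, 8 matched the promoter table (all but Egr1 and Ier2), and 6 of these held TGACG on either strand (Fos, Fosb, Junb, Atf3, Dusp1 and Nr4a1). Over all 32851 promoter windows of the same length the share was 20.8%. Nr4a1 held 4 matches and Dusp1 held 3, of which 2 overlap in the complete palindrome TGACGTCA, 143 bases before the start. That palindrome stood in 1.79% of all windows. The AP-1 site TGACTCA and the CArG box bound by serum response factor were found in 0 of the 8 windows, and in 5.2% and 1.63% of all. These matches describe letters in a window of 300 bases and show no binding.

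No immediate early gene passed the test in any comparison. Their summed level was 475, 438 and 422 CPM in ABTAA 1, 2 and 3, 538, 437 and 463 CPM in VEGF Trap 1, 2 and 3, and 492, 462 and 426 CPM in Fc 1, 2 and 3, so that the groups overlapped. In ABTAA against Fc, 0 of 10 members passed the test by edgeR, where 1.4% of all tested genes did (197 genes, and 0 to 373 with 1 library left out), and 0 had an unadjusted p under 0.05, where 16.9% of all did. In VEGF Trap against Fc, 0 of 10 passed, where 1.02% of all did (144 genes, and 7 to 144 with 1 library left out), and 1, Ier2, had an unadjusted p under 0.05, where 15.4% of all did. In ABTAA against VEGF Trap, 0 of 10 passed and 0% of all tested genes did (1 with DESeq2, 0 with limma-voom), and 1, Fos, had an unadjusted p under 0.05, where 5.06% of all did. The median log2 fold change of the members was -0.09 in ABTAA against Fc, -0.02 in VEGF Trap against Fc and 0.01 in ABTAA against VEGF Trap, while the medians over all tested genes were -0.0029, 0.0010 and -0.0033 in the same order. In both comparisons with Fc, 6 of 10 members had a fold change below 0, as did 50.4% of all tested genes with ABTAA and 49.9% with VEGF Trap, and in ABTAA against VEGF Trap it was 5 of 10, against 50.5% of all. The groups did not overlap for 1 of 10 members in each comparison, where 23% of all tested genes did not overlap in ABTAA against Fc, 20.9% in VEGF Trap against Fc and 9.88% in ABTAA against VEGF Trap. Both comparisons with Fc share the Fc libraries. In bulk tissue, fewer cells of a type and less RNA per cell cannot be told apart.

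**Figure D1:**
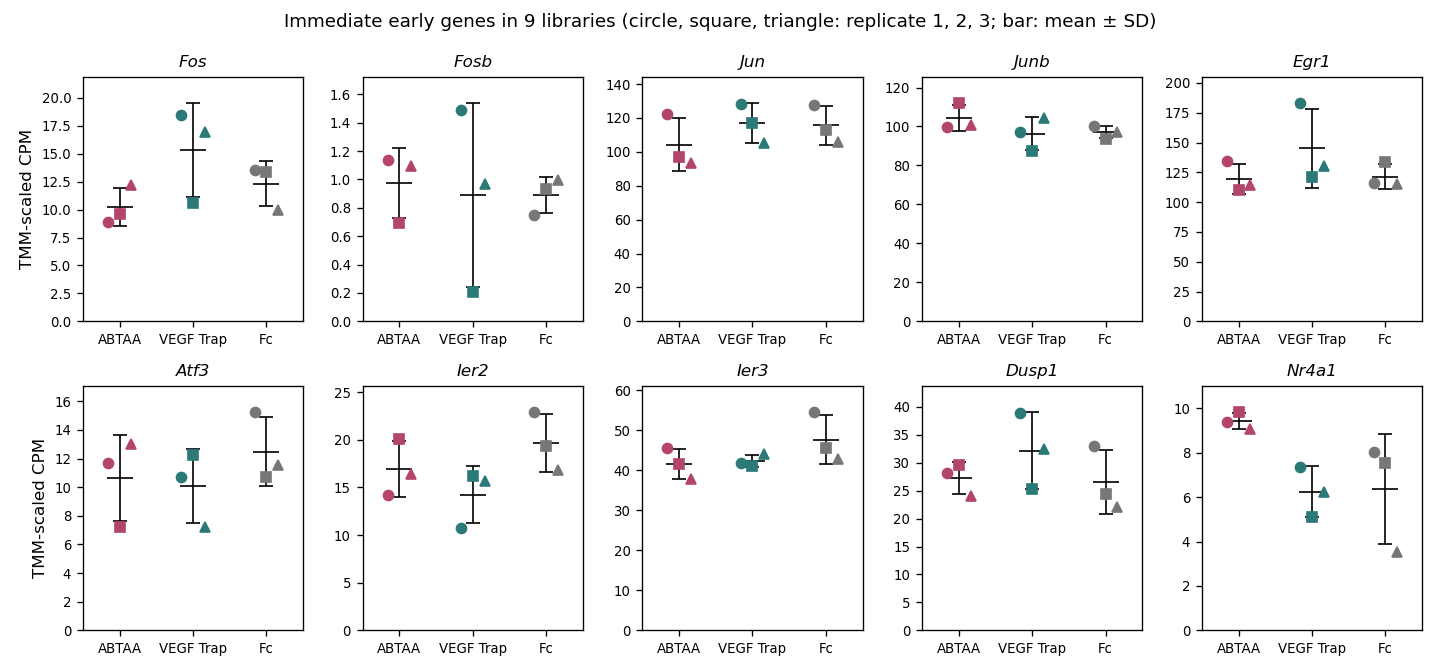
TMM-scaled CPM of the 10 immediate early genes (vertical axes, each from 0) in ABTAA, VEGF Trap and Fc libraries; symbols are single libraries and bars the mean ± SD of 3. The groups overlap in most panels; the 3 ABTAA libraries of Nr4a1, at 9.07 to 9.82, lie above the other 6, and the 3 VEGF Trap libraries of Ier2, at 10.8 to 16.2, lie below the 3 Fc libraries.

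Fos, the prototype member and the AP-1 partner of Jun proteins, had its lowest values with ABTAA and its highest with VEGF Trap. Fos (a gene on the plus strand of chromosome 12, from 85473890 to 85477273 in the GENCODE annotation of GRCm38) had 8.88, 9.62 and 12.2 CPM in ABTAA 1, 2 and 3, 18.5, 10.6 and 16.9 CPM in VEGF Trap 1, 2 and 3, and 13.5, 13.4 and 10.003 CPM in Fc 1, 2 and 3. The groups overlapped in every pairing, since VEGF Trap 2 stood at the Fc level and ABTAA 3 above Fc 3. The log2 fold change was -0.28 ± 0.24 (SE) in ABTAA against Fc (adjusted p = 0.606, edgeR) and 0.31 ± 0.23 in VEGF Trap against Fc (adjusted p = 0.563). Single libraries moved both: the ABTAA value ran from -0.41 without Fc 3 to -0.18 without ABTAA 1, and the VEGF Trap value was 0.15 without VEGF Trap 1, 0.17 without Fc 3 and 0.53 without VEGF Trap 2. Fosb, a Fos paralog that also pairs with Jun proteins, was near the detection floor. Its level was 1.14, 0.694 and 1.10 CPM in ABTAA, 1.49, 0.209 and 0.970 CPM in VEGF Trap and 0.747, 0.934 and 0.993 CPM in Fc. With 3 to 18 reads per library, its fold change in ABTAA against Fc had an interval of -1.37 to 1.60 on the log2 scale, so a change of 2-fold in either direction was not detectable at this depth.

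Jun and Junb, the AP-1 subunits that pair with Fos or with each other, had the smallest spread among the transcription factors of the set. Jun had 122, 97.1 and 93.2 CPM in ABTAA, 129, 117 and 105 CPM in VEGF Trap and 128, 113 and 106 CPM in Fc. The groups overlapped, and the log2 fold change was -0.15 (interval -0.43 to 0.13) in ABTAA against Fc and 0.02 (interval -0.26 to 0.30) in VEGF Trap against Fc. Junb had 100.0, 112 and 101 CPM in ABTAA, 97.2, 87.2 and 104 CPM in VEGF Trap and 100.2, 93.8 and 97.3 CPM in Fc. Its spread over the 9 libraries was 6.86% of its mean, below that of all but 5.58% of the 1469 tested genes within 1.5-fold of its mean level. Junb had a log2 fold change of 0.10 ± 0.11 in ABTAA against Fc (adjusted p = 0.708) and -0.01 ± 0.11 in VEGF Trap against Fc (adjusted p = 0.974). The last 500 bases of Junb overlap an exon of Prdx2 on the other strand, and because the strand setting is not known, reads of these genes could be mixed. Prdx2, a peroxiredoxin, had 78.7, 85.9 and 120 CPM in ABTAA, 83.4, 98.7 and 92.2 CPM in VEGF Trap and 104, 116 and 115 CPM in Fc.

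Atf3, a stress-induced factor of the ATF and CREB family that can repress its targets, had 11.7, 7.24 and 13.0 CPM in ABTAA, 10.7, 12.3 and 7.21 CPM in VEGF Trap and 15.2, 10.7 and 11.5 CPM in Fc. The lowest ABTAA and VEGF Trap libraries lay below all Fc libraries and the others among them, with log2 fold changes of -0.24 ± 0.26 (ABTAA against Fc, adjusted p = 0.698, edgeR) and -0.29 ± 0.25 (VEGF Trap against Fc, adjusted p = 0.628). Both hung on single libraries, since the ABTAA value was -0.02 without ABTAA 2, -0.40 when ABTAA 3 was left out and -0.08 without Fc 1, and the VEGF Trap value was -0.11 without VEGF Trap 3, -0.13 without Fc 1 and -0.46 without VEGF Trap 2.

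Egr1, a zinc finger factor induced by growth factors and injury, had 134, 110.5 and 114 CPM in ABTAA, 183, 122 and 131 CPM in VEGF Trap and 116, 134 and 115 CPM in Fc. VEGF Trap 1 stood above all other libraries, and the other VEGF Trap libraries lay within the range of Fc. Against Fc, the log2 fold change of Egr1 was -0.02 ± 0.15 with ABTAA (adjusted p = 0.963) and 0.26 ± 0.15 with VEGF Trap (adjusted p = 0.437), and without VEGF Trap 1 the second value was 0.06.

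Nr4a1, an orphan nuclear receptor that VEGF induces in endothelial cells, had the largest fold change of the set in ABTAA against Fc. It lies on chromosome 15 from 101254269 to 101274795 (GRCm38, plus strand) and had 9.40, 9.82 and 9.07 CPM in ABTAA, 7.38, 5.09 and 6.24 CPM in VEGF Trap and 8.03, 7.55 and 3.51 CPM in Fc. All ABTAA libraries stood above all others, by a narrow margin over Fc 1 and a wide one over Fc 3. The log2 fold change was 0.57 ± 0.29 against Fc (unadjusted p = 0.0665, adjusted p = 0.337, edgeR) and 0.60 ± 0.29 against VEGF Trap (unadjusted p = 0.0576, adjusted p = 0.956). The value against Fc rested in part on Fc 3, since it was 0.27 without that library. The summed level of 14 endothelial markers was also higher in these libraries, at 2896 to 3041 CPM in ABTAA, 2234 to 2474 CPM in VEGF Trap and 1900 to 2428 CPM in Fc. None of the 14 was at 0 in any library, 5 of 14 rose in ABTAA against Fc, and 0 did without ABTAA 2 or without Fc 2, 1 without Fc 3 and 3 without ABTAA 1 or without ABTAA 3. Their part in the level of Nr4a1 was not tested.

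Dusp1, the phosphatase that inactivates MAP kinases, had 28.1, 29.7 and 24.1 CPM in ABTAA, 38.9, 25.2 and 32.4 CPM in VEGF Trap and 33.1, 24.4 and 22.1 CPM in Fc. The groups overlapped, with log2 fold changes of 0.05 ± 0.19 in ABTAA against Fc (adjusted p = 0.936) and 0.28 ± 0.18 in VEGF Trap against Fc (adjusted p = 0.516). As with Egr1, the VEGF Trap value rested largely on VEGF Trap 1 and was 0.12 without it.

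Ier2, a nuclear protein of the early growth response, had its lowest values with VEGF Trap. It lies on chromosome 8 from 84661331 to 84662852 (GRCm38, minus strand) and had 14.3, 20.1 and 16.4 CPM in ABTAA, 10.8, 16.2 and 15.7 CPM in VEGF Trap and 22.9, 19.3 and 16.8 CPM in Fc. The VEGF Trap libraries all lay below the Fc libraries, while ABTAA overlapped both. In VEGF Trap against Fc, the log2 fold change was -0.47 ± 0.20 (unadjusted p = 0.0327, adjusted p = 0.266, edgeR) and it was -0.29 without VEGF Trap 1. Ier3, a stress-responsive regulator of cell survival, had 45.4, 41.6 and 37.9 CPM in ABTAA, 41.9, 41.2 and 44.1 CPM in VEGF Trap and 54.5, 45.6 and 42.9 CPM in Fc. Its log2 fold changes against Fc were -0.19 ± 0.13 with ABTAA and -0.17 ± 0.13 with VEGF Trap (adjusted p = 0.509 and 0.593), with Fc 1 above all other libraries. Without Fc 1 they were -0.09 with ABTAA and -0.06 with VEGF Trap.

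ABTAA and VEGF Trap were also set directly against each other. ABTAA both binds angiopoietin 2 and switches on Tie2, and this comparison does not separate these actions. Fos had a log2 fold change of -0.59 ± 0.24 (unadjusted p = 0.0247, adjusted p = 0.953, edgeR), with ABTAA 3 above VEGF Trap 2 and the remaining libraries separated. Egr1 stood at -0.28 ± 0.15 and Dusp1 at -0.23 ± 0.19, and Ier2 at 0.26 ± 0.20. Without VEGF Trap 1 these values were -0.42 for Fos, -0.08 for Egr1, -0.07 for Dusp1 and 0.08 for Ier2. No member was shown to differ, and the intervals set how large a difference could have been missed. Within 1.5-fold either way lay the 95% intervals of 5 members in ABTAA against Fc, of 4 in VEGF Trap against Fc and of 3 in ABTAA against VEGF Trap. Within 2-fold lay 8, 9 and 7 in the same order, and Fosb, with the fewest reads, was outside in all 3.

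**Figure D2:**
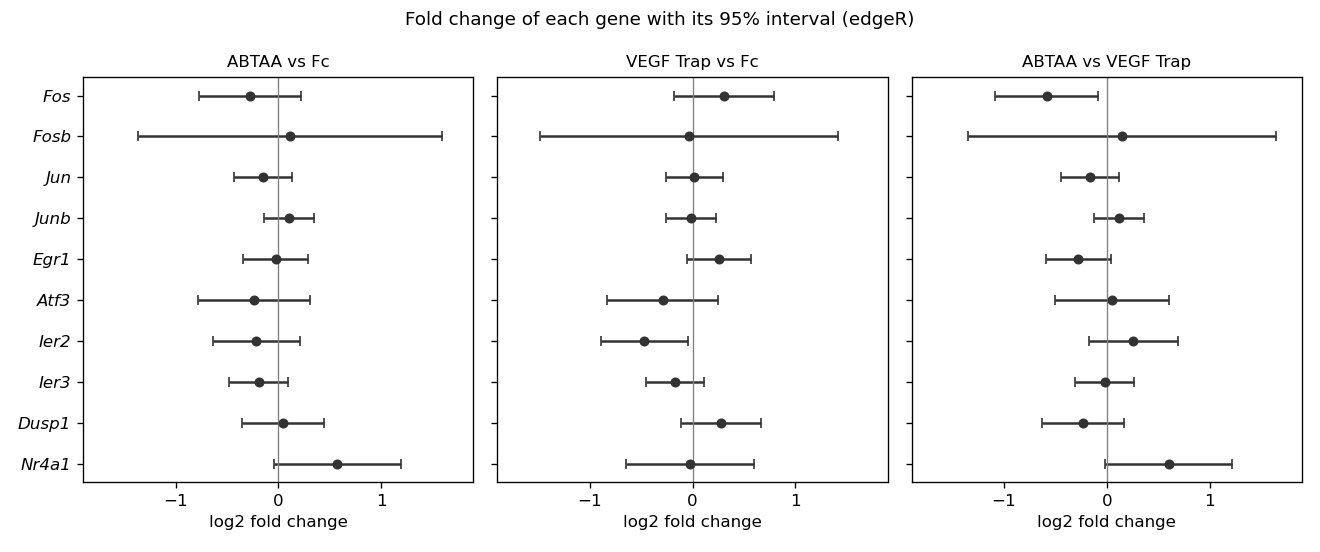
Log2 fold change (horizontal axis) of each immediate early gene with its 95% interval, for ABTAA against Fc, VEGF Trap against Fc and ABTAA against VEGF Trap. All intervals cross 0 in ABTAA against Fc; Ier2 in VEGF Trap against Fc (-0.89 to -0.04) and Fos in ABTAA against VEGF Trap (-1.09 to -0.09) do not, before adjustment over all genes.

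The members did not move as 1 block across the libraries. VEGF Trap 1 had the highest level of 5 members (Fos, Fosb, Jun, Egr1 and Dusp1) and the lowest of Ier2. Fc 1 had the highest level of 3 members (Atf3, Ier2 and Ier3), and ABTAA 2 that of Junb and Nr4a1. Among the 45 pairs of members, 29 had a positive Pearson correlation over the 9 libraries, the coefficients ran from -0.80 to 0.64, and 0 passed after adjustment over the 45 pairs by an exact permutation test, for Pearson's r or for Spearman's rho. This test shuffles libraries across the 3 groups, so differences between groups are mixed with variation within them. For deviations from group means, the Pearson coefficients ran from -0.79 to 0.74 and were not tested. The pair with the smallest p, Egr1 and Ier2, had r = -0.80 (2-sided exact permutation p = 0.0145, adjusted p = 0.581) and rho = -0.68 (exact permutation p = 0.0503, adjusted p = 0.830). Without ABTAA 1 and VEGF Trap 1, the 2 farthest from the median of Egr1, r was -0.25. Such an omission narrows the range of 1 gene and can itself weaken r. It therefore cannot show that the pair rested on few libraries. For deviations from group means, r of this pair was -0.79. Fos and Egr1 had r = 0.63 (exact permutation p = 0.0552, adjusted p = 0.581) and rho = 0.38 (exact permutation p = 0.312, adjusted p = 0.897), and r was -0.01 without VEGF Trap 1 and VEGF Trap 3. Fos and Dusp1, whose promoters are printed above, had r = 0.64 (exact permutation p = 0.0684, adjusted p = 0.581) and rho = 0.53 (exact permutation p = 0.148, adjusted p = 0.830), and r was 0.08 without the same libraries. These are the 2 farthest from the median of Fos, so the same limit holds. For deviations from group means, r was 0.47 for Fos and Egr1 and 0.59 for Fos and Dusp1.

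**Figure D3:**
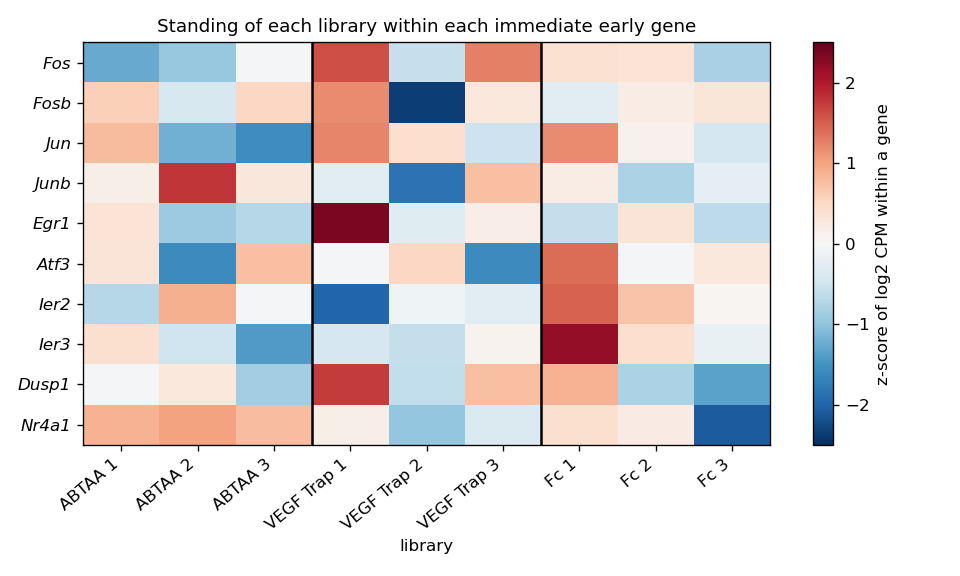
Standing of each of the 9 libraries (columns, ABTAA, VEGF Trap and Fc) within each immediate early gene (rows), as the z-score of its log2 CPM, red above and blue below the mean of the gene. VEGF Trap 1 is the reddest cell of 5 rows and Fc 1 of 3, while no group is of 1 colour in all rows.

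VEGF Trap 1 and Fc 1 also stood apart in other transcripts. The ribosomal precursor Rn45s held 15.8% of counts in VEGF Trap 1, and no other library exceeded 13.3%. The summed level of 8 photoreceptor genes was 152 CPM in VEGF Trap 1 and 31.4 to 81.7 CPM in the others, with only the cone gene Arr3 at 0, in 7 libraries. The lens list of 8 genes summed to 334 CPM in VEGF Trap 1 and 204 to 297 CPM in the others, and 6 of its genes were at 0 in at least 1 library. In Fc 1 the 8 neutrophil genes summed to 590 CPM, against 84.2 to 188 CPM in the others, with Retnlg at 0 in 2 libraries and Ngp in 6. The part of these transcripts in the levels of the immediate early genes was not tested.

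Relatives of the members did pass the test. Jund, the Jun paralog that is expressed at a steady level in most cells and often counters Jun in growth, was higher with both reagents. It lies on chromosome 8 from 70698949 to 70700616 (GRCm38, plus strand) and had 310, 283 and 244 CPM in ABTAA, 324, 271 and 299 CPM in VEGF Trap and 208, 195 and 190 CPM in Fc. All treated libraries stood above all Fc libraries, and Jund rose by a log2 fold change of 0.50 ± 0.11 with ABTAA (adjusted p = 0.0473, edgeR) and of 0.59 ± 0.11 with VEGF Trap (adjusted p = 0.0322). It was the 1 of 16 other AP-1 and bZIP genes that passed, and none passed as lower. Egr3, a paralog of Egr1 that VEGF induces in endothelial cells, had 75.0, 53.0 and 46.0 CPM in ABTAA, 54.7, 38.3 and 57.0 CPM in VEGF Trap and 36.7, 33.1 and 26.3 CPM in Fc. Both treated groups lay above Fc without overlap. Egr3 rose by 0.86 ± 0.20 with ABTAA (adjusted p = 0.0473), and its value with VEGF Trap was 0.64 ± 0.20 (adjusted p = 0.122). It was the 1 of 39 tested rapid-response genes that passed in ABTAA against Fc, and 0 of 39 passed in VEGF Trap against Fc, where Ctgf (-0.59, adjusted p = 0.0607) and Plk3 (0.93, adjusted p = 0.0691) had the smallest p-values. All 9 counts of Jund are even and all 9 of Egr3 are multiples of 3. Even counts throughout were not particular to Jund. Among the 14167 genes detected in all 9 libraries, 1616 (11.4%) had only even counts. The share for multiples of 3 is not given here. What made the counts of Jund and Egr3 so is not known here. With counts divided by their common divisor, Jund and Egr3 still passed (adjusted p = 0.0382 and 0.0458 in ABTAA against Fc, edgeR). Jund did not pass in ABTAA against Fc without Fc 1, 2 or 3, ABTAA 1 or 2, or VEGF Trap 2 or 3, nor in VEGF Trap against Fc without Fc 1, 2 or 3 or VEGF Trap 1 or 3. Egr3 did not pass without Fc 1, 2 or 3 or ABTAA 1 or 2. Over these omissions the log2 fold change ran from 0.41 to 0.53 for Jund with ABTAA, from 0.53 to 0.63 for Jund with VEGF Trap, and from 0.63 to 0.97 for Egr3.

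Paralogs of the members, named after their values were seen, differed in their values as well. Against Fc, Egr2 had a log2 fold change of 0.22 ± 0.29 with ABTAA and -0.36 ± 0.29 with VEGF Trap, and Fosl2 had -0.25 ± 0.16 with both. The Nr4a1 paralog Nr4a2 had 60.9, 46.8 and 40.7 CPM in ABTAA, 63.7, 50.9 and 39.1 CPM in VEGF Trap and 61.8, 100.1 and 56.4 CPM in Fc. Its log2 fold changes of -0.55 ± 0.22 with ABTAA (adjusted p = 0.215) and -0.50 ± 0.22 with VEGF Trap (adjusted p = 0.283) were negative, where Nr4a1 had 0.57 and -0.03. Nr4a3, also of the Nr4a family, had 0.23 ± 0.34 with ABTAA and 0.20 ± 0.34 with VEGF Trap, both positive. Fosl1 had -0.40 ± 0.57 and 0.20 ± 0.54 in the same order. None of these paralogs passed by edgeR.

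**Figure D4:**
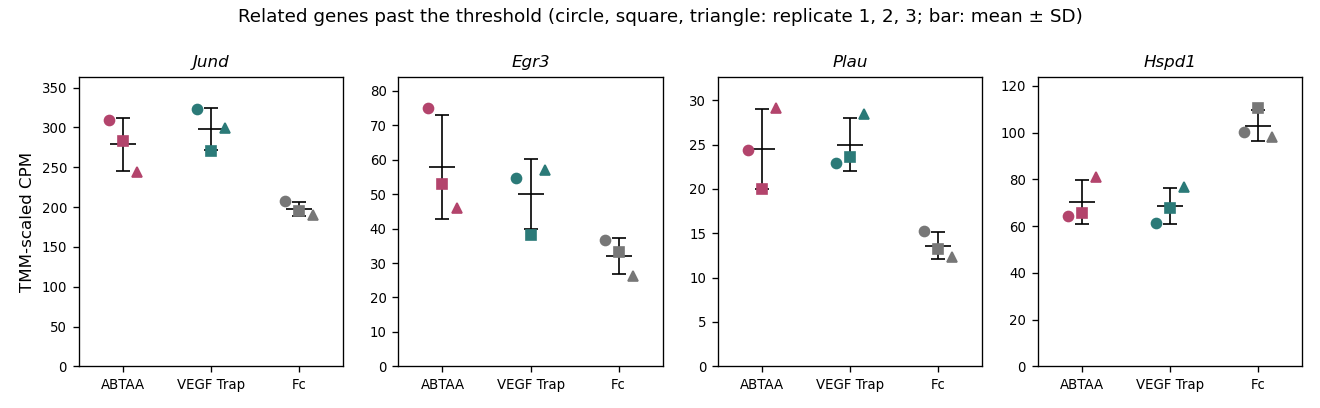
TMM-scaled CPM (vertical axes from 0) of the 4 related genes that passed the test in at least 1 comparison, by group, with single libraries as symbols and mean ± SD as bars. Jund, Egr3 and Plau lie higher in all 6 treated libraries than in any Fc library, and Hspd1 lies lower.

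Upstream and downstream of the members, 117 related genes were tested in all, and 4 passed in ABTAA against Fc (3.42%, where 1.4% of all tested genes did), 3 in VEGF Trap against Fc (2.56%, where 1.02% of all did) and 0 in ABTAA against VEGF Trap by edgeR. Of 28 kinases and factors upstream, 0 passed. The ERK1 gene Mapk3 stood at 0.41 ± 0.11 with ABTAA (adjusted p = 0.0730) and 0.30 ± 0.11 with VEGF Trap (adjusted p = 0.204), and the JNK1 gene Mapk8 at -0.38 ± 0.16 with VEGF Trap (adjusted p = 0.252). Of 14 tested feedback inhibitors, 0 passed. Nab2, a corepressor that binds Egr factors and is itself induced by them, had 85.5, 76.8 and 70.4 CPM in ABTAA, 78.1, 77.5 and 75.1 CPM in VEGF Trap and 58.5, 53.6 and 56.4 CPM in Fc. The treated libraries all lay above Fc, with 0.47 ± 0.12 for ABTAA (adjusted p = 0.0611) and 0.45 ± 0.12 for VEGF Trap (adjusted p = 0.0689). The MAP kinase pathway inhibitor Spry2 stood at -0.34 with ABTAA (adjusted p = 0.178), and Spry1 at -1.47 ± 0.39 with VEGF Trap (adjusted p = 0.0761). These Spry1 groups overlapped, with 4.31, 2.79 and 6.10 CPM in VEGF Trap and 5.61, 18.7 and 11.3 CPM in Fc. Spry4 stood at 0.72 ± 0.38 with ABTAA (adjusted p = 0.357, edgeR) and 0.08 ± 0.39 with VEGF Trap (adjusted p = 0.844).

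Among 11 tested AP-1 target genes, Plau passed in both comparisons with Fc and none passed as lower. A fold change below 0 was found for 8 of 11 with ABTAA and for 6 of 11 with VEGF Trap. Plau, the urokinase that activates plasmin, had 24.4, 20.0 and 29.1 CPM in ABTAA, 22.9, 23.6 and 28.4 CPM in VEGF Trap and 15.2, 13.2 and 12.3 CPM in Fc. It rose by 0.85 ± 0.17 with ABTAA (adjusted p = 0.0359, edgeR) and by 0.87 ± 0.17 with VEGF Trap (adjusted p = 0.0323). Of 9 heat shock genes, Hspd1, a mitochondrial chaperonin, passed in both and none passed as higher. A fold change above 0 was found for 5 of 9 with ABTAA and for 1 of 9 with VEGF Trap. Hspb1, named after its values were seen, lay above Fc without overlap in both groups. Its values were 0.47 ± 0.12 with ABTAA (adjusted p = 0.0698, edgeR) and 0.24 ± 0.12 with VEGF Trap (adjusted p = 0.388). Hspa8 lay below Fc without overlap in both groups. It stood at -0.40 ± 0.10 with ABTAA (adjusted p = 0.0665, edgeR) and -0.35 ± 0.10 with VEGF Trap (adjusted p = 0.104). Of the 9, 2 lay above and 4 below Fc without overlap with ABTAA, where 23% of all tested genes did not overlap. With VEGF Trap, 1 lay above and 2 below, where 20.9% of all did not overlap. Hspd1 had 64.2, 65.8 and 81.0 CPM in ABTAA, 61.4, 67.6 and 76.5 CPM in VEGF Trap and 100.2, 110.4 and 98.1 CPM in Fc. It fell by 0.55 with ABTAA (adjusted p = 0.0497) and by 0.59 with VEGF Trap (adjusted p = 0.0460). The end of its transcript is shared with the pseudogene Hspd1-ps3, so its counts are uncertain. In ABTAA against Fc, Plau did not pass without any 1 of the Fc or ABTAA libraries, and Hspd1 without Fc 1, 2 or 3, ABTAA 1 or 2, or VEGF Trap 2 or 3. In VEGF Trap against Fc, Plau did not pass without Fc 1, 2 or 3 or VEGF Trap 2 or 3, and Hspd1 without any 1 of the Fc or VEGF Trap libraries or ABTAA 2. The log2 fold changes ran from 0.71 to 0.98 for Plau and from -0.67 to -0.49 for Hspd1 over all alternatives.

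Markers of other cell types also differed between groups. Of 12 skeletal muscle genes, 9 rose with ABTAA and 3 with VEGF Trap, and their sum was 227 to 468 CPM in ABTAA, 211 to 372 CPM in VEGF Trap and 107 to 156 CPM in Fc, so that all treated libraries lay above Fc, with none of the genes at 0. The calls hung on single libraries, as 0 of 12 rose with ABTAA without ABTAA 2 or without Fc 2, and 0 of 12 with VEGF Trap when VEGF Trap 2 or 3, ABTAA 3, or Fc 1 or 2 was left out. Their median log2 fold change was 1.15 to 1.78 with ABTAA and 0.84 to 1.22 with VEGF Trap over the 9 omissions. Of 8 genes listed as melanocyte markers, 1 rose with ABTAA (0 without ABTAA 2) and 2 with VEGF Trap (0 without any 1 of the Fc or VEGF Trap libraries). Whether these genes tell melanocytes from the captured pigment epithelium was not tested. Their sums were 2914 to 3015 CPM in ABTAA, 2387 to 4176 CPM in VEGF Trap and 2252 to 2569 CPM in Fc, so that VEGF Trap overlapped Fc, with none at 0. Of 12 macrophage and microglia genes, 2 fell with ABTAA (0 without ABTAA 2 or without Fc 1, 2 or 3) and 0 passed with VEGF Trap. Their sums were 1564 to 1845 CPM in ABTAA, 1935 to 2164 CPM in VEGF Trap and 1960 to 2133 CPM in Fc, where VEGF Trap overlapped Fc, with none at 0. Of 5 tested neutrophil genes, 1 fell with ABTAA, a call lost without ABTAA 2, and 0 passed with VEGF Trap. All 5 had a fold change below 0 in both comparisons. The sums of the 8 listed genes were 84.2 to 95.8 CPM in ABTAA, 88.1 to 146 CPM in VEGF Trap and 124 to 590 CPM in Fc. All ABTAA libraries thus lay below Fc, VEGF Trap overlapped Fc, and Fc 1 was the highest. The part of these cells in the levels of Jund, Egr3, Plau and Hspd1 was not tested.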

How the data were processed

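The LEXOGEN QuantSeq kit, which reads transcript 3 prime ends, was used for the libraries, per the labels' protocols. Each deposited table lists raw counts by gene symbol, read as counts because the values are whole and their totals differ. Bowtie2, edgeR and mm10 are named in the submitters' processing notes; no version, annotation, counting tool or strand setting was found in the labels.

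Genes with low counts were removed by filterByExpr, library sizes were scaled with TMM, and edgeR 4.0.16 under R 4.3.3 gave quasi-likelihood tests from a single model of the 9 libraries (6 residual degrees of freedom). Of 24421 symbols, 14054 were tested, and p-values were Benjamini-Hochberg adjusted over these within each comparison (threshold 0.05). Intervals are at 95%. SEs follow from the fold change and its F statistic. The fit was tested on simulated counts with changes planted between ABTAA and Fc. These changes were larger than any fold change of a member and were not planted in genes with reads as few as Fosb. This test therefore cannot tell how well changes of the members' size would be found.

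Members and lists were chosen with earlier results of these data known. All members are named; from each list of related genes, those past the threshold are named, or the 2 with the smallest p; some genes that this rule or the likeness ranking picks are not reported here. Other settings tried were limma-voom (limma 3.58.1, with quality weights), DESeq2 1.42.0, RLE scaling, library totals, other filters, a 2-group fit, the replicate number as a block, counts divided by their common divisor, and omission of each library. Transcript ends were searched for copies with BLAST+ 2.17.0 (last 200 bases, at least 100 bases at 95% identity). Libraries of 1 group differed beyond counting noise (chi-square over degrees of freedom 8.17 to 20.3 in the 9 pairs), so each was kept as a replicate.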

Additional observations from a re-analysis of the deposited data

How the results depend on the processing

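No immediate early gene passed in any comparison under any of the 18 alternatives (537 values, lowest adjusted p = 0.190), and the sign differed from the reported one in 28 values, while 20 of 30 combinations of gene and comparison kept 1 sign throughout. Other related genes called in ABTAA against Fc were 9 with DESeq2, 9 with limma-voom and 11 without a filter, against 4 as reported. In VEGF Trap against Fc they were 14 with DESeq2, 5 with library totals, 10 without a filter and 5 after division by the common divisor, where 3 are reported. The cause was not tested. Without single libraries they ran from 0 to 7 with ABTAA and from 0 to 3 with VEGF Trap, with fewer samples in the fit. The median log2 fold change of the members then ran from -0.15 to -0.02 in ABTAA against Fc, from -0.10 to 0.08 in VEGF Trap against Fc and from -0.105 to 0.0246 in ABTAA against VEGF Trap. Over all genes, 750 passed in ABTAA against Fc with DESeq2, 411 with limma-voom and 684 without a filter, against 197 as reported. In VEGF Trap against Fc the counts were 671, 242 and 616 in the same order, against 144 as reported, and in ABTAA against VEGF Trap 1, 0 and 30, against 0 as reported. With 1 library left out, the count in ABTAA against Fc was 0 without ABTAA 2, 58 without ABTAA 1, 47, 13 and 35 without Fc 1, 2 or 3, 373 without VEGF Trap 1 and 101 without VEGF Trap 2. In VEGF Trap against Fc it was 62, 60 and 25 without VEGF Trap 1, 2 or 3 and 18, 7 and 32 without Fc 1, 2 or 3. With only 2 groups in the fit, 301 passed in ABTAA against Fc; in VEGF Trap against Fc, 221 passed with library totals and 249 after division by the common divisor. The endothelial, skeletal muscle, melanocyte and macrophage marker lists were recomputed under the same settings, a step chosen after seeing the data. Jund in ABTAA against Fc missed the threshold with library totals (adjusted p = 0.0516), and Hspd1 with RLE scaling there (0.0524) and with only the groups of VEGF Trap and Fc in the fit (0.0527). With the replicate number as a block, 0 immediate early genes passed in any comparison and 334 genes passed in ABTAA against Fc, against 197 as reported, and 300 in VEGF Trap against Fc, against 144 as reported. Deviations of same-numbered libraries correlated at 0.01 to 0.11 and those of other libraries at -0.09 to 0.04. All but VEGF Trap 2 were best matched to their own number, and VEGF Trap 2 stood at 0.03671 with ABTAA 3 and 0.03665 with ABTAA 2. No label says what the numbers share, so the block was kept as an alternative. A source common to same-numbered libraries was not tested. Fosb had too few counts for the filter of 10 counts in 6 libraries and was not tested there. Depth limits Fosb most.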

Other observations

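Among the genes whose pattern over the 9 libraries was most like the average standing of the 10 immediate early genes were Ice2, Synj2bp, Itpripl2, Nuak2 and Idnk. They had Pearson coefficients of 0.90 to 0.95 with that average and were among the 6 highest of 8472 genes of at least 10 CPM, so the coefficients are a description of a choice and carry no test. Nuak2, a kinase of the AMPK family, had 42.6, 36.1 and 39.4 CPM in ABTAA, 62.0, 33.7 and 44.9 CPM in VEGF Trap and 52.5, 50.2 and 32.7 CPM in Fc. VEGF Trap 1 and Fc 1 were its highest libraries.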
